A study of Mus musculus with 6 samples.

Results

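The 10 genes described here encode the JAK kinases, Jak1, Jak2, Jak3 and Tyk2, and the transcription factors Stat2, Stat3, Stat4, Stat5a, Stat5b and Stat6. They were listed by symbol as members of both families, a rule that uses no measured value, and all 10 are listed in the count tables of all 6 libraries, which hold 24411 features. RNA-seq was performed on primary microglia (PM) of mice, of which 3 libraries received GSK-J4 at 10 μM and the other 3 received LPS at 10 ng/ml together with GSK-J4 at 10 μM, for 4-h each. GSK-J4 is a cell-permeable inhibitor of the H3K27 demethylases JMJD3 and UTX, and LPS is the bacterial lipopolysaccharide that activates TLR4. Both groups carried GSK-J4, so each difference given here is the LPS response in its presence, and untreated PM and PM treated with LPS alone were not analysed here. The PM came from the pooled brains of 12 ICR mice at 3 days of age, whose mixed glial cultures were grown for 2 weeks and then shaken to collect the microglia. The study describes the replicates as biological and independent, but whether each came from a separate pool of mice is not given in the sources used here, so p values measure the spread between these libraries.

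Cytokine receptors of this pathway have no kinase activity of their own. A pair of JAK kinases bound to the receptor phosphorylates it when the cytokine binds, STAT proteins dock on the phosphorylated tails, are phosphorylated in turn, and enter the nucleus as dimers that bind DNA. In microglia the pathway carries the signals of type I interferon, of cytokines of the IL-6 and IL-10 families, of IL-4 and of colony-stimulating factors. RNA-seq measures the transcripts of these proteins and not their phosphorylation.

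Of the 9 members with enough counts to be tested, 1 rose and 1 fell in LPS + GSK-J4 against GSK-J4. Jak2, the kinase used by the receptors of interferon gamma, growth hormone and several colony-stimulating factors, rose 1.74-fold. Stat5b, a factor activated by growth hormone and by cytokines of the IL-2 and IL-3 families, was 1.71-fold lower. Here "rose" and "fell" stand for a p of at most 0.01, adjusted after Benjamini and Hochberg, in edgeR's quasi-likelihood test over the 10133 genes tested. Over all genes tested, 8.42% rose and 5.46% fell, 13.9% in either direction, so that the counts of 1 and 1 of 9 are near the background. None of the 9 also reached a log2-fold change of 1.5 in either direction, the study's further criterion for differential expression, which 3.76% of all genes tested met (2.95% up-regulated and 0.809% down-regulated). At an unadjusted p under 0.05, 2 members were higher and 2 were lower, where 19.3% of all genes tested were higher and 15.5% lower, so these counts are near the background too. None of the 9 reached a log2-fold change of 1.5 in any alternative, the DESeq2 Wald test included. The 95% interval of the log2-fold change of each of the 9 members lay between -1.5 and 1.5. The remaining member, Stat4, had too few counts to be tested.

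Before the values, the DNA just upstream of an annotated start of each gene the results turn on is shown, since core promoter elements lie there. The sequences are those of RefSeq on GRCm38.p6, the 250 bases before an annotated start, on the strand of the gene and 5′ to 3′. Capitals mark matches to any of 4 patterns, searched on both strands. These were GAS, the palindrome TTCNNNGAA that STAT dimers bind, the wider TTCNNNNGAA preferred by STAT6, ISRE, GAAANNGAAA or TTTCNNTTTC on the other strand, bound by ISGF3, the complex of STAT2 and IRF9 that answers to type I interferon, and the GC box GGGCGG or CCGCCC, bound by factors of the Sp family. Jak2, which rose, is shown from chr19:29251553-29251802 on the plus strand, and Stat5b, which fell, from chr11:100850582-100850831 on the minus strand. Stat2 (chr10:128270248-128270497, plus strand) is shown for its matches to the ISRE and the wider GAS, and Stat5a (chr11:100860234-100860483, plus strand) as the neighbour and close relative of Stat5b. Stat5a and Stat5b each have another RefSeq start, at 100859656 and 100822570, and which start was used in PM was not tested. The Stat5a sequence lies inside the annotated gene, downstream of its other start, and that of Stat5b lies partly inside its gene.
Jak2: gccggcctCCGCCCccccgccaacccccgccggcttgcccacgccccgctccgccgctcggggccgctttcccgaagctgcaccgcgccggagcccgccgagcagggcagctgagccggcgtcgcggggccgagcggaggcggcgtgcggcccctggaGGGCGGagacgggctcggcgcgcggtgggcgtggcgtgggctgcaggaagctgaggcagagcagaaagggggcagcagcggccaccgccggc
Stat5b: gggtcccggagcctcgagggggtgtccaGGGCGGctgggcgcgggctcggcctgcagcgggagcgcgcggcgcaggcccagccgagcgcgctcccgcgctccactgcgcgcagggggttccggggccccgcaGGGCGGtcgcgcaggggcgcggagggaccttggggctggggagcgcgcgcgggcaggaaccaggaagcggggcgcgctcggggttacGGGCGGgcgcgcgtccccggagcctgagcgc
Stat2: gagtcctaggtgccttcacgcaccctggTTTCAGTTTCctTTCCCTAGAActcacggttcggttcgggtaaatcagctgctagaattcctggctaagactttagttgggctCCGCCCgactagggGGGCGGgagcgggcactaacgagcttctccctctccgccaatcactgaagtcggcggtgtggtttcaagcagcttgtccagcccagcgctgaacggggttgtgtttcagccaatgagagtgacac
Stat5a: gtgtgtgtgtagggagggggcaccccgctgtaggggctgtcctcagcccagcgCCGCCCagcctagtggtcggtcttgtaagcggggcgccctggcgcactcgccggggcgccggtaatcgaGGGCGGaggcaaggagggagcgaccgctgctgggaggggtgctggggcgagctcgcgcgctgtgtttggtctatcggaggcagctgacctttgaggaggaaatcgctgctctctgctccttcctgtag

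The sequence printed for Jak2 held 2 GC boxes and that printed for Stat5b held 3, and neither held a match to the GAS, the wider GAS or the ISRE. Both were made largely of G and C, at 80.8% for Jak2 and 82.0% for Stat5b, against a median of 52.4% over the 32851 upstream sequences searched. The sequence before the other start of Stat5b was at 46.4% and held no match to any of the patterns. Upstream of Stat2, TTTCAGTTTC lay 222 to 213 bases before the start and TTCCCTAGAA 210 to 201 bases before it, and no matches of different patterns overlapped. The 10 members have 13 RefSeq starts, of which 0 held a GAS, 1 the wider GAS, 2 an ISRE and 8 a GC box. Over all upstream sequences the shares were 7.02%, 5.85%, 2.98% and 32.7%, respectively. The other ISRE match, GAAAGTGAAA, lay 97 to 88 bases before the downstream start of Stat4. Stat5a and Stat5b, which arose by duplication, shared AGGAAATCGCTGCTCT between the sequence printed for Stat5a and the one before the other start of Stat5b. These are matches of letters in a short window and say nothing on whether a factor was bound.

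The libraries held 2597505 to 3472716 fragments assigned to genes, of which the 10 members together took 1345 to 2457. Values are given as CPM after scaling by edgeR's TMM factors, and 3 counts, the level that a count of 0 allows, stood for 0.673 to 1.24 CPM, which covers counting error only. The precursor of ribosomal RNA, Rn45s, took 25.6% ± 5.88 (SD, n = 3) of the counts in GSK-J4 but 47.1% ± 1.15 in LPS + GSK-J4, so fewer counts on other genes stood behind each value of the latter. Replicate 3 of both groups stood apart, with a chi-square per degree of freedom of 5.81 to 12.5 against the other replicates of its group and of 2.12 and 2.32 between replicates 1 and 2. All 10 microglial markers passed the filter on low counts. Their summed level was 3063 to 3166 CPM in GSK-J4 and 2409 to 2505 CPM in LPS + GSK-J4. At the adjusted p, 2 of them were lower (Cx3cr1 and Csf1r) and 0 higher, beside 5.46% and 8.42% of all genes tested. At an unadjusted p under 0.05 in edgeR's test, 7 were lower and 0 higher, beside 15.5% and 19.3%. The 10 log2-fold changes ran from -0.95 to -0.21, with a median of -0.38. Markers of other glia and of neurons were higher in LPS + GSK-J4, where 8.42% of all genes tested rose. Their summed level went from 57.5 to 60.5 CPM to 139 to 169 CPM for astrocytes (4 of 7 tested rose), from 146 to 175 CPM to 255 to 281 CPM for the oligodendrocyte lineage (3 of 6 rose), and from 10.9 to 11.2 CPM to 26.8 to 30.1 CPM for neurons (2 of 2 rose). Of 5 mesenchymal markers none passed the test (1 was higher at an unadjusted p under 0.05), with sums of 77.7 to 273 CPM and 132 to 416 CPM, and the 7 lymphocyte markers reached 3 counts at most, with Cd3d, Cd3g and Nkg7 at 0. Fewer cells of a type and less RNA per cell cannot be told apart in such libraries, and the part of the other cell types in the results on the members was not tested.

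**Figure D1:**
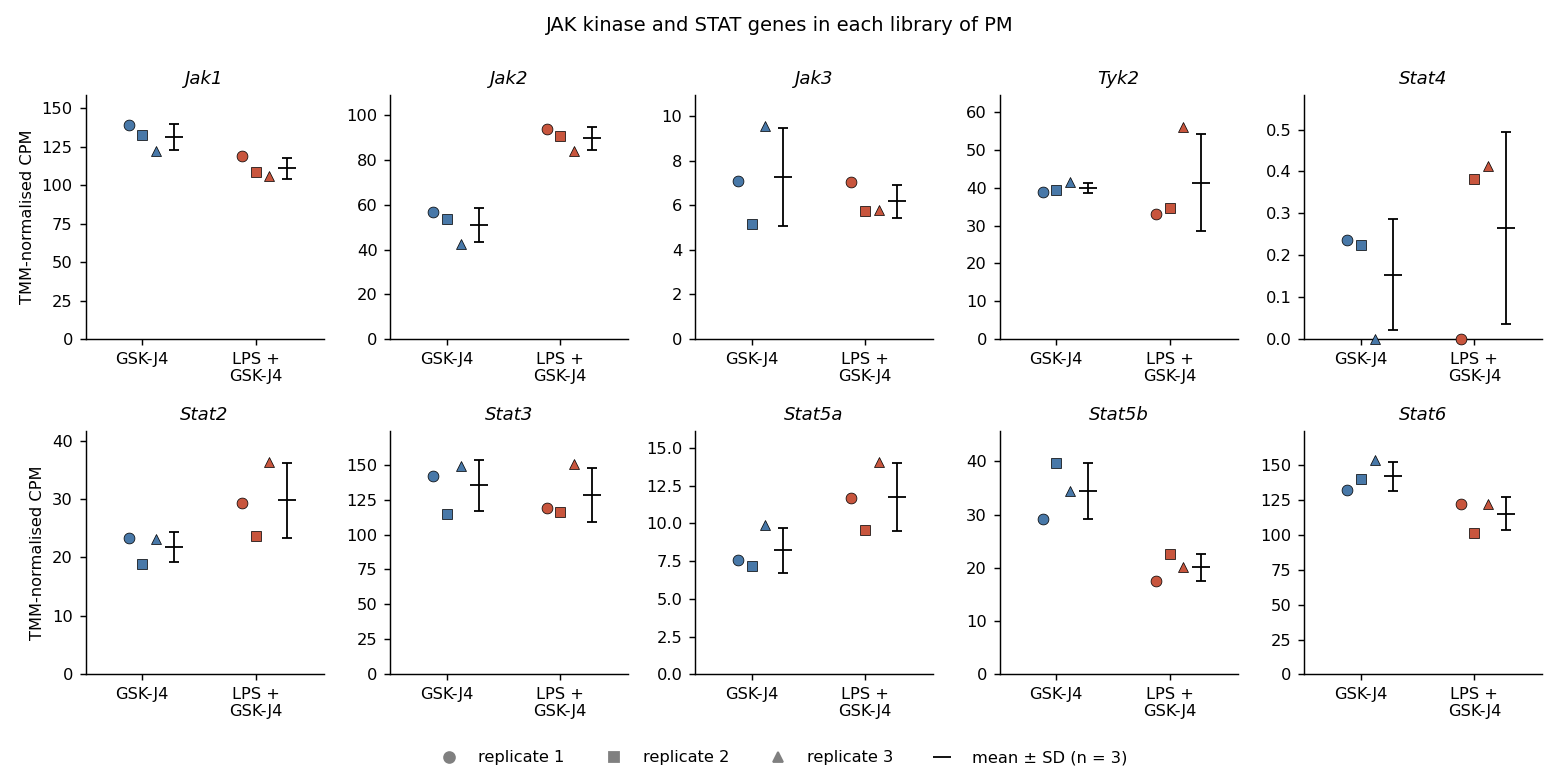
TMM-normalised CPM (linear axis from 0) of each member in every library, with GSK-J4 in blue and LPS + GSK-J4 in red, a symbol for each replicate, and a bar for the mean and SD of 3 libraries. The groups did not overlap for Jak1, Jak2, Stat2, Stat5b and Stat6, and Stat4 was at 0 or 1 count throughout.

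Among the kinases, Jak2 (chr19:29251828-29313080, plus strand, mm10) had 241, 240 and 116 counts in GSK-J4 replicates 1, 2 and 3, or 56.9, 53.9 and 42.5 CPM. In LPS + GSK-J4 it had 241, 238 and 204 counts, or 94.1, 90.8 and 84.2 CPM. All libraries with LPS lay above all libraries without it, and replicate 3 was the lowest of its group in both. The mean level went from 51.1 ± 7.56 CPM (SD, n = 3) to 89.7 ± 5.00 CPM, a log2-fold change of 0.80 (SE 0.14, 95% interval 0.50 to 1.10) with an adjusted p of 0.000605 in edgeR's test. In GSK-J4 the SD was 14.8% of the mean, where counting error alone gives 7.09%. Jak2 stood at rank 664 of the genes tested by p, and it rose under all 15 alternatives, with log2-fold changes of 0.70 to 0.88. No 50-base stretch of its annotated transcripts was found, letter for letter, in those of another gene, and copies elsewhere in the genome were not searched.

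Jak1 (chr4:101152367-101265282, minus strand), the kinase shared by the receptors of interferons and of the IL-6 and IL-2 families, had the most counts of the 4 kinase genes in every library. It was at 139, 133 and 122 CPM in GSK-J4 and at 119, 108 and 106 CPM in LPS + GSK-J4. All libraries with LPS lay below those without it, by a small margin. Its log2-fold change of -0.24 (SE 0.12, 95% interval -0.50 to 0.02) did not pass (adjusted p = 0.173, edgeR).

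Tyk2 (chr9:21104068-21131243, minus strand), which serves the receptors of type I interferon and of IL-12, was at 38.9, 39.3 and 41.4 CPM in GSK-J4. In LPS + GSK-J4 it was at 33.2, 34.7 and 56.2 CPM. Replicate 3 with LPS was above and the other replicates with LPS below every GSK-J4 library, and the SD of this group was 31.1% of its mean, against 9.81% from counting error. The log2-fold change was 0.05 (SE 0.19, 95% interval -0.35 to 0.45, adjusted p = 0.884 in edgeR) and became -0.23 without LPS + GSK-J4 replicate 3. The gene overlaps 1700084C06Rik on the other strand, but at most 2 antisense counts fell on Tyk2 in a library.

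Jak3 (chr8:71676296-71690575, plus strand), the partner of the common gamma chain of the IL-2 family receptors and mainly a kinase of lymphocytes, had 30, 23 and 26 counts in GSK-J4 and 18, 15 and 14 counts in LPS + GSK-J4. This was 7.08, 5.16 and 9.53 CPM against 7.03, 5.72 and 5.78 CPM, and the groups overlapped. The log2-fold change of -0.19 (SE 0.31) had a 95% interval from -0.86 to 0.47 (adjusted p = 0.716, edgeR) and turned to 0.016 without GSK-J4 replicate 3. The 3′ part of Jak3 overlaps Insl3 on the same strand over 1362 bases, and 6.93% of its 50-base stretches are also found in another gene, mostly Insl3. Fragments there are assigned to neither gene where both are annotated.

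Within the kinase family the make-up of the counts shifted from Jak1 towards Jak2. Jak2 made up 23.5, 23.3 and 19.7% of the counts on the 4 kinase genes in GSK-J4 and 37.1, 37.9 and 33.4% in LPS + GSK-J4, with means of 22.2% ± 2.13 (SD, n = 3) and 36.1% ± 2.41. The share of Jak1 was 57.5, 57.4 and 56.6% in GSK-J4 against 47.0, 45.2 and 42.1% in LPS + GSK-J4, and its groups did not overlap either. There were 2.44, 2.46 and 2.87 counts on Jak1 for each count on Jak2 in GSK-J4, and 1.27, 1.19 and 1.26 in LPS + GSK-J4. Such a ratio within a library does not depend on how libraries are scaled, and it shows an unequal change of both genes but not which of them changed. Of the 6 pairs of kinase genes, 3 had ratios that did not overlap between the groups, this pair included, and all 3 contain Jak2. Pairs that share a gene are not independent, and the share over all pairs of genes was not computed. The summed level of the 4 kinases was 229 ± 13.2 CPM (SD, n = 3) without LPS and 248 ± 7.62 CPM with it, and the groups overlapped. The shares of Jak3 and Tyk2 overlapped between the groups as well.

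**Figure D2:**
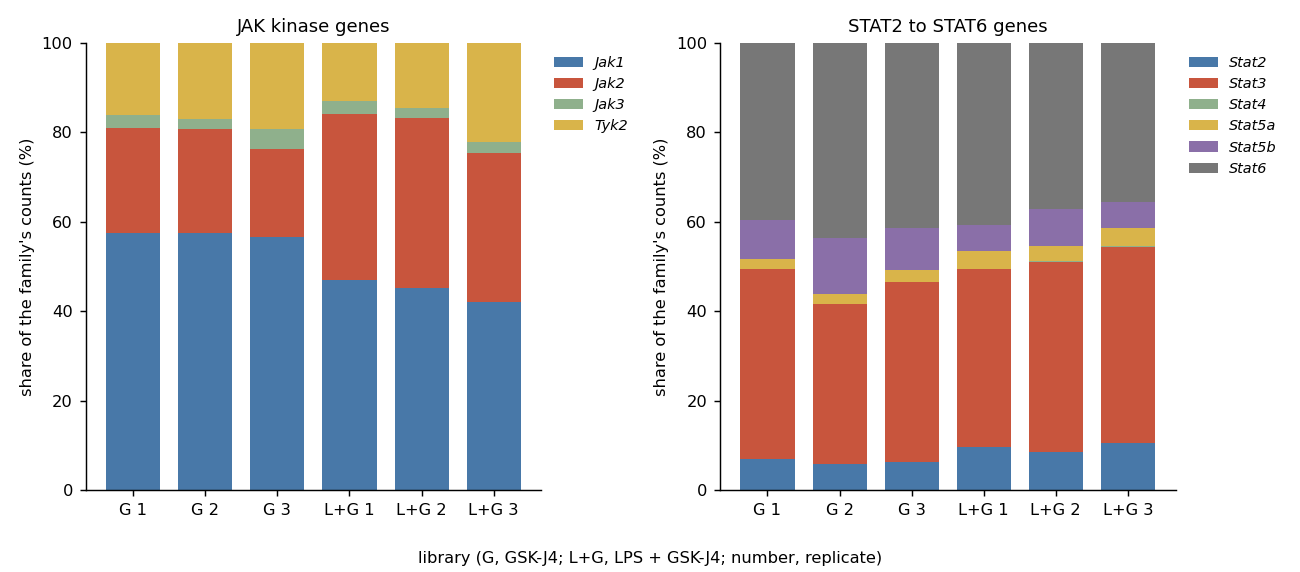
Share (%) of each gene in the counts on the 4 JAK kinase genes (left) and on the genes of STAT2 to STAT6 (right), with a stacked bar for each library. The Jak2 band widens from 19.7 to 23.5% in the GSK-J4 libraries to 33.4 to 37.9% in the LPS + GSK-J4 libraries.

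Among the transcription factors, Stat5b (chr11:100780731-100850724, minus strand) had 124, 177 and 94 counts in GSK-J4, or 29.3, 39.7 and 34.5 CPM. In LPS + GSK-J4 it had 45, 59 and 49 counts, or 17.6, 22.5 and 20.2 CPM. All libraries with LPS lay below those without it. The mean level went from 34.5 ± 5.24 CPM (SD, n = 3) to 20.1 ± 2.48 CPM, a log2-fold change of -0.78 (SE 0.19, 95% interval -1.18 to -0.38) with an adjusted p of 0.00676 in edgeR's test. This call was close to the threshold and was lost when any of 4 libraries was left out, although the direction held. The adjusted p was 0.0514 without GSK-J4 replicate 2, 0.0159 without GSK-J4 replicate 3, 0.0291 without LPS + GSK-J4 replicate 1 and 0.0165 without LPS + GSK-J4 replicate 2, with log2-fold changes of -0.66, -0.78, -0.69 and -0.87. Without replicate 3 of both groups it was 0.00443.

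Stat5a (chr11:100859351-100885169, plus strand) lies 8626 bases from Stat5b on the other strand and is activated by overlapping sets of cytokines, with prolactin as the classical signal. It had 32, 32 and 27 counts in GSK-J4 and 30, 25 and 34 counts in LPS + GSK-J4. This was 7.55, 7.18 and 9.90 CPM against 11.7, 9.54 and 14.0 CPM, and the lowest library with LPS was below the highest one without it. Its log2-fold change of 0.54 (SE 0.26, 95% interval -0.02 to 1.09) did not pass (adjusted p = 0.156, edgeR). The estimates for Stat5a and Stat5b thus had opposite signs, and the interval of Stat5a reached below 0. There were 0.258, 0.181 and 0.287 counts on Stat5a for each count on Stat5b in GSK-J4, and 0.667, 0.424 and 0.694 in LPS + GSK-J4. Of the 10 pairs of tested STAT genes, 7 had ratios that did not overlap between the groups, this pair included. These pairs share genes as well, and no share over all pairs of genes was computed to set beside this count. Of the 50-base stretches of their transcripts, 608 are common to both genes, which is 8.21% of those of Stat5a and 11.0% of those of Stat5b. Fragments that lie wholly within these stretches map to both places and were left uncounted, so both levels are lower bounds. The last 72 bases of Stat5a overlap the end of Stat3 on the other strand, where a directional library keeps them apart.

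Stat2 (chr10:128270559-128292849, plus strand), the STAT protein specific to interferon signalling, was at 23.4, 18.9 and 23.1 CPM in GSK-J4 and at 29.3, 23.7 and 36.3 CPM in LPS + GSK-J4. All libraries with LPS lay above those without it, but the lowest of the former exceeded the highest of the latter only narrowly. The log2-fold change was 0.45 (SE 0.20, 95% interval 0.03 to 0.87), with an unadjusted p of 0.0356 and an adjusted p of 0.113 in edgeR's test, and it did not pass under any alternative (0.29 to 0.60). As shown above, its upstream sequence is the one among the members that held both an ISRE and the wider GAS.

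Stat6 (chr10:127642986-127660957, plus strand), the mediator of IL-4 and IL-13, was at 132, 140 and 153 CPM in GSK-J4 and at 122, 102 and 122 CPM in LPS + GSK-J4. All libraries with LPS lay below those without it. The log2-fold change was -0.30 (SE 0.13, 95% interval -0.57 to -0.03), with an unadjusted p of 0.0307 and an adjusted p of 0.101 in edgeR's test, and no alternative brought it past the threshold (-0.35 to -0.22). The highest antisense count of any member, 13, was on this gene, against 560 counts on its own strand in the same library.

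Stat3 (chr11:100885098-100939540, minus strand), the factor activated by the IL-6 and IL-10 families, was at 142, 114 and 149 CPM in GSK-J4 and at 119, 116 and 150 CPM in LPS + GSK-J4. The groups overlapped, and in both of them replicate 3 was the highest library. The log2-fold change was -0.07 (SE 0.14, 95% interval -0.37 to 0.23, adjusted p = 0.765 in edgeR). The interval bounds a change of this abundant gene more tightly than that of Stat5a or Jak3, the tested members with the fewest counts.

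Stat4 (chr1:51987148-52107189, plus strand), which carries the signals of IL-12 in lymphocytes, had 1, 1 and 0 counts in GSK-J4 and 0, 1 and 1 counts in LPS + GSK-J4. It lay at or under the floor of 3 counts in every library, so no fold is given, and the lymphocyte markers Cd3d, Cd3g and Nkg7 were at 0 in the same libraries. It was left out by the filter on low counts, and without this filter its adjusted p was 0.885 in edgeR. In the reference annotation it overlaps Gm28177 on the same strand, and 21.7% of its 50-base stretches are found there too, so some of its fragments could not be assigned.

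Taking the factors as a family, Stat2 and Stat5a took a larger share of the STAT counts with LPS and Stat5b a smaller one. The share of Stat2 was 6.37% ± 0.560 (SD, n = 3) without LPS and 9.68% ± 0.976 with it. That of Stat5a was 2.39% ± 0.248 and 3.83% ± 0.311, and that of Stat5b 10.2% ± 1.96 and 6.67% ± 1.35. None of these shares overlapped between the groups, while those of Stat3, Stat4 and Stat6 did. Shares within a family depend on one another, and no background for them was computed. The summed level of these factors was 342 ± 25.3 CPM (SD, n = 3) and 305 ± 35.2 CPM, and the groups overlapped.

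**Figure D3:**
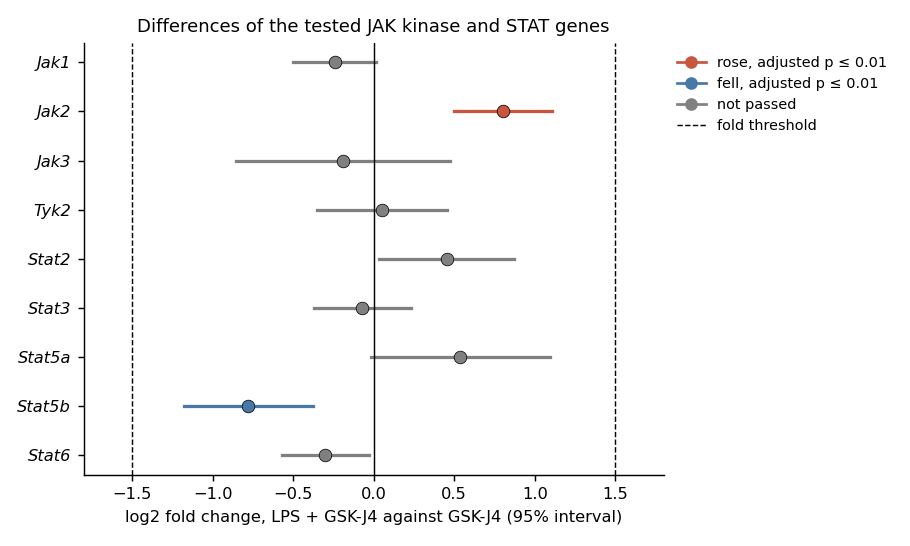
Log2-fold change of LPS + GSK-J4 against GSK-J4 (horizontal axis) for the 9 tested members, as a point with its 95% interval from edgeR. Jak2 lies right of 0 at 0.80 and Stat5b left of it at -0.78, and all intervals stay inside the dashed lines at -1.5 and 1.5.

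In 5 of the 9 tested members the groups did not overlap, above for Jak2 and Stat2 and below for Jak1, Stat5b and Stat6. Over all genes tested the groups did not overlap for 38.2%, 19.8% above and 18.4% below. The median log2-fold change of the 9 members was -0.07, against -0.00064 over all genes tested.

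To compare levels between genes, the CPM of each member was divided by its exon length in kilobases. In GSK-J4 the order was Stat6 (37.6 CPM per kilobase), Jak1 (26.8), Stat3 (21.7), Jak2 (10.2), Tyk2 (7.17), Stat5b (6.23), Stat2 (4.95), Stat5a (2.07), Jak3 (1.63) and Stat4 (0.0488). The ranges over 3 libraries overlapped between Tyk2 and Stat5b, between Stat5b and Stat2 and between Stat5a and Jak3. Within each GSK-J4 library Stat5a was nonetheless above Jak3, while the order of Tyk2 and Stat5b and that of Stat5b and Stat2 varied. In LPS + GSK-J4 the order was Stat6 (30.5 CPM per kilobase), Jak1 (22.7), Stat3 (20.6), Jak2 (17.8), Tyk2 (7.43), Stat2 (6.77), Stat5b (3.63), Stat5a (2.96), Jak3 (1.38) and Stat4 (0.0841). With LPS, the range of Jak2 overlapped that of Stat3, that of Stat3 overlapped Jak1 and that of Stat5b overlapped Stat5a. Within each library of this group Stat3 was still above Jak2 and Stat5b above Stat5a. By their means, Stat2 and Stat5b had changed places. Stat5b stood apart from Stat2 and overlapped with Stat5a in this group. Among the tested genes with a length, Jak2 went from percentile 67.1 to 80.6 of the level per kilobase and Stat5b from 51.9 to 34.1.

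**Figure D4:**
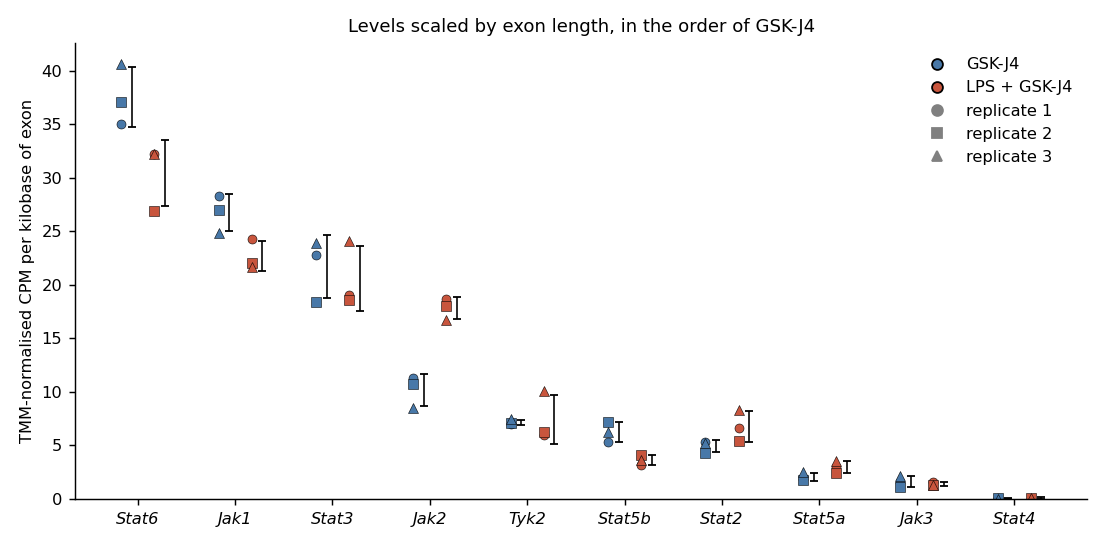
TMM-normalised CPM per kilobase of exon (linear axis from 0) of the 10 members in the order of their GSK-J4 means, with a symbol for each library and bars for the SD of 3 libraries. Jak2 lies at 8.46 to 11.3 in GSK-J4, apart from Stat3, and at 16.7 to 18.7 in LPS + GSK-J4, where it overlaps Stat3.

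The order depends in part on which transcripts define a gene's length. With all GENCODE transcripts in place of the basic set, an alternative chosen after seeing the data, Jak2 took rank 2 in LPS + GSK-J4, ahead of Jak1 and Stat3, and Stat5b rank 5 in GSK-J4, ahead of Tyk2.

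The genes whose levels over the 6 libraries were most like those of Jak2, by Pearson's r of log2 CPM over 10124 tested genes that are no members, were Zfp719 (r = 0.9996), Arrdc4 (r = 0.9992) and Gbp7 (r = 0.997). The 6 libraries fall into their groups in this measure, so that r rests largely on the difference between groups, and no p is given. Arrdc4, which encodes an arrestin-domain protein, rose by 1.23 on the log2 scale and Gbp7, an interferon-inducible GTPase, by 3.25. Zfp719, a zinc finger gene, had a log2-fold change of 0.78 (adjusted p = 0.00508, edgeR). Its adjusted p was above the threshold in the DESeq2 Wald test (0.0204) and without GSK-J4 replicate 1 (0.0112), 2 (0.0211) or 3 (0.0207) or LPS + GSK-J4 replicate 1 (0.0182) or 2 (0.0239).

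The other genes of the pathway were counted by their roles, and each count is to be read beside the 8.42% of all genes tested that rose, the 5.46% that fell, and their median log2-fold change of -0.00064. Of 31 ligands, 9 were tested, of which 7 rose and 1 fell, with a median of 2.08. Ifnb1, interferon beta, went from 1, 0 and 0 counts to 250, 234 and 189, a ratio of 1011 with a counting interval of 181 to 39981. Il12b, a subunit of IL-12 and IL-23, went from 1, 0 and 0 counts to 28, 29 and 16, a ratio of 110 with an interval of 19.1 to 4389, and both genes were at 0 in GSK-J4 without its replicate 1. Il6 rose by 3.91 on the log2 scale, from 1.86 ± 0.989 CPM (SD, n = 3) to 30.6 ± 4.90 CPM. Osm, oncostatin M of the IL-6 family, fell by 1.45, from 185 ± 21.4 to 67.9 ± 7.07 CPM. With at least 10 counts asked in every library, which removes genes that start near 0, 6 ligands were tested, of which 4 rose and 1 fell.

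Of 38 receptor genes, 23 were tested, of which 1 rose and 4 fell, with a median log2-fold change of -0.04. Il15ra, which presents IL-15, rose by 2.05 on the log2 scale. Il21r, a receptor that signals through Jak1 and Jak3, fell by 1.83, from 47.0, 49.6 and 55.7 CPM to 14.1, 15.3 and 13.2 CPM. Il4ra, the chain upstream of Stat6, fell by 0.78 (adjusted p = 0.00102, edgeR) and Csf3r, the receptor of G-CSF, by 0.69 (adjusted p = 0.000495). Without LPS + GSK-J4 replicate 2 the receptors that fell numbered 2, and Il4ra was not among them (adjusted p = 0.0122).

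All 20 inhibitor genes were tested, of which 5 rose and 2 fell, with a median log2-fold change of -0.0058. The feedback inhibitors Socs3, Socs1 and Cish, which block JAK kinases or receptor docking sites, rose by 2.98, 2.55 and 2.51 on the log2 scale. In GSK-J4, Socs1 had 5, 5 and 2 counts and Cish 6, 6 and 4, so the values of both rest on few counts. With at least 10 counts asked in every library, 17 inhibitors were tested, of which 3 rose and 2 fell. Socs6 fell by 2.13, from 137, 172 and 143 CPM to 34.3, 44.3 and 24.4 CPM. Ptpn1, a phosphatase that acts on Jak2 and Tyk2, fell by 0.87 (adjusted p = 0.00124, edgeR), a call lost without LPS + GSK-J4 replicate 2 (0.016). Of the 13 tested genes of 14 partners, 0 rose and 1 fell, Grb2, an adaptor protein, by 0.75 on the log2 scale, and the median log2-fold change was -0.05. At an unadjusted p under 0.05, 1 partner was higher and 3 were lower, beside 19.3% and 15.5% of all genes tested, and the DESeq2 Wald test also called 1 in all. Irf9, the DNA-binding partner of Stat2, had a log2-fold change of 0.62 (adjusted p = 0.0112, edgeR), just short of the threshold, with 22.0 to 25.1 CPM in GSK-J4 and 35.9 to 37.1 CPM in LPS + GSK-J4. It passed without LPS + GSK-J4 replicate 3 (adjusted p = 0.00848), without replicate 3 of both groups (0.00787), in the fit with a replicate block (0.00198) and at a threshold of 0.05.

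Genes known as targets of the members were counted last, with 8.42% of all genes tested rising and 5.46% falling. Of 9 tested targets of STAT3, 6 rose and 1, Il4ra, fell, with a median log2-fold change of 1.24. Pim1, a survival kinase, rose by 2.34 on the log2 scale and Junb, a subunit of AP-1, by 1.69. Of 6 tested targets of STAT5, 3 rose and 1, Osm, fell, with Ccnd2, a cyclin, higher by 1.10 on the log2 scale beside Cish and Pim1, and a median of 0.57. Of 4 tested targets of STAT6, 1 rose (Ccl22, a chemokine, by 2.64) and 1 fell (Il4ra), a count of 2 that went from 1 to 4 over the alternatives and was 1 without LPS + GSK-J4 replicate 2 and 4 without replicate 3 of both groups. Their median log2-fold change was 0.08. Ccl22 had 4, 5 and 2 counts in GSK-J4 and 12, 12 and 23 in LPS + GSK-J4. With at least 10 counts asked in every library, 3 targets of STAT6 were tested, of which 0 rose and 1 fell. Of the 12 targets of ISGF3, all of them tested, 10 rose, and 8 of these had a log2-fold change of at least 1.5, with a median of 3.68 over the 12. Rsad2, Ifit1 and Cxcl10, an antiviral enzyme, an antiviral RNA-binding protein and a chemokine, rose by 6.59, 6.58 and 6.19. The values of Ifit1 and Cxcl10, at 16, 3 and 1 and at 0, 7 and 3 counts in GSK-J4, rest on few counts. That of Ifit1 was 8.15 without GSK-J4 replicate 1, and that of Cxcl10 was 5.55 without GSK-J4 replicate 1 and 7.13 without GSK-J4 replicate 2. With at least 10 counts in every library, 8 of these targets were tested, of which 6 rose. Socs2, Socs3, Cish, Pim1, Osm, Il4ra, Usp18, Il10 and Il2ra stand in more than 1 of these lists, and many of the targets are also known to answer to other factors.

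**Figure D5:**
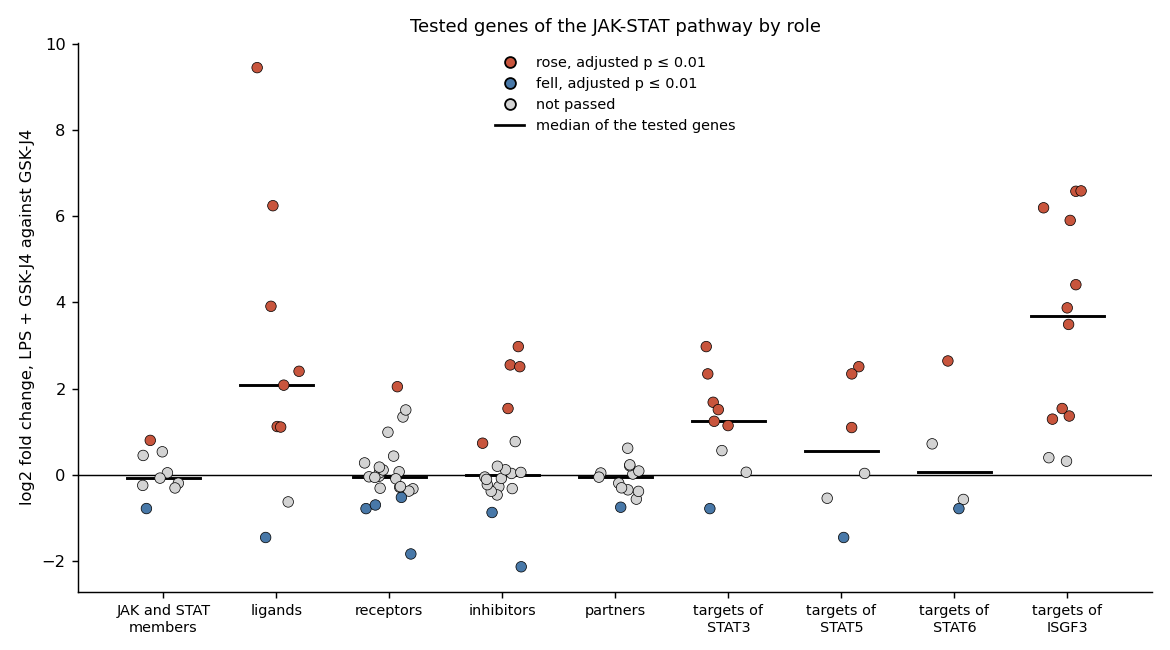
Log2-fold change of LPS + GSK-J4 against GSK-J4 (vertical axis) of the tested genes, by role, with red for genes that rose, blue for genes that fell, grey for the rest and a line for the median of each role. The 9 members lie between -0.78 and 0.80, while 10 of the 12 targets of ISGF3 rose; the points of Ifnb1 and Il12b, near 0 counts in GSK-J4, depend on the prior count of the fit.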

How the data were processed

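RNA-seq libraries of PM, 3 treated with GSK-J4 and 3 with LPS + GSK-J4, were analysed. Per the labels and methods, rRNA-depleted RNA was made into directional libraries and sequenced from both ends, base calls came from CASAVA 1.8.2, reads were trimmed with Trimmomatic 0.33 and aligned to mm10 with STAR 2.5.1. The authors deposited STAR's raw gene counts, 1 table a library and not normalized, of which the reverse-strand column was used. STAR leaves out fragments that map to several places or overlap several genes. The annotation behind the counts is not given in the sources used here. Positions and lengths are from the GENCODE annotation of mm10, matched by symbol for all 10 members (for 96.76% of the tested genes a length was found), and upstream sequences from RefSeq on GRCm38.p6.

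After TMM scaling, edgeR 4.0.16 (on limma 3.58.1 and R 4.3.3) was run with filterByExpr (minimum count 10, minimum total 15) and the robust quasi-likelihood test, fitted on all genes and adjusted over all 10133 tested. The common biological coefficient of variation was 0.133, and the smallest exact permutation p that groups of 3 allow is 0.1. Alternatives were DESeq2 1.42.0, other scalings, strand column, filters and thresholds, a replicate block, and leaving out each library or replicate 3 of both groups.

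The members, and the lists of ligands, receptors, inhibitors, partners, targets and markers, were chosen with earlier results of these data known. Results that need 1 of the listed marker genes by name are not reported here. Named were all members, Irf9, and of each list up to 3 genes that rose and 3 that fell with the largest change. Each list is described by its counts and median, with the shares and median over all genes tested given beside them. Figures were drawn with matplotlib 3.10.9, pandas 2.3.3 and numpy 2.4.6 under Python 3.11.15.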

Additional observations from a re-analysis of the deposited data

How the results depend on the processing

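Jak2 kept its call under all 15 alternatives, with adjusted p of at most 0.00594. Stat5b kept its direction (-0.89 to -0.66 on the log2 scale when libraries were left out) and lost its call without each of 4 libraries, so that the count of members called was 1 to 2. Members that did not pass stayed so throughout. The sign of Jak3 turned without GSK-J4 replicate 3 (0.016, range over libraries left out -0.41 to 0.069) and without replicate 3 of both groups (0.069). That of Tyk2 turned without the filter on low counts (-0.0039), without LPS + GSK-J4 replicate 3 (-0.23, range -0.23 to 0.18) and without replicate 3 of both groups (-0.20). The cause was not tested. Over all genes, the count of 1406 became 2390 at a threshold of 0.05, 920 to 1604 when each library was left out, the lowest without LPS + GSK-J4 replicate 2, and 1750 without replicate 3 of both groups. The partners that differed numbered 2 in 4 settings. Deviations of libraries with the same replicate number correlated at -0.011, 0.105 and 0.278, the last for replicate 3. Those with different numbers correlated at -0.27 to 0.22. These values do not settle whether the numbers pair the libraries, and the main fit did not pair them. With the number as a replicate block, 2275 genes differed, 1259 higher and 1016 lower, Jak2 had a log2-fold change of 0.81 (adjusted p = 1.63e-07) and Stat5b -0.78 (0.000288), and no other member passed. Over the 18016 genes of the DESeq2 Wald test the median log2-fold change was 0.127. Over the genes shared with edgeR's fit it moved by -0.047 there and by -0.054 without the filter on low counts. Depth limits Jak3, Stat4 and Stat5a most.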
